A study of Mus musculus with 4 samples.

Results

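Natural killer (NK) cells were taken from single-cell RNA sequencing of CD45+ leukocytes of EO771 mammary tumors, and were chosen by raw counts of unique molecular identifiers (UMIs, each marking 1 captured mRNA molecule). A cell that the authors kept was an NK cell if it held at least 2 UMIs of *Ncr1* and *Klrb1c* together and 0 UMIs of *Cd3d*, *Cd3e*, *Cd3g*, *Cd8a* and *Cd8b1*. It also had to be under 300 UMIs of *S100a8* and *S100a9* and under 20 UMIs of the C1q genes per 10000 of its UMIs, and cells with UMIs of both *Mki67* and *Top2a*, genes of dividing cells, were left out. The rule found 1081 NK cells among 28429 kept cells, which is 3.8%.

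NK cells are innate lymphocytes that kill target cells without a rearranged antigen receptor. They release perforin, which opens membranes, and granzymes, proteases that trigger cell death, and they secrete chemokines and interferon gamma. Activating receptors such as NKp46, encoded by *Ncr1*, and NK1.1, encoded by *Klrb1c*, are balanced by inhibitory receptors for MHC class I, and in mice most of these belong to the Ly49 family, encoded by the Klra genes, or are CD94 paired with NKG2A, encoded by *Klrc1*. In mouse tumors NK cells are known as a source of cytotoxic granules and of XCL1 and CCL5, which attract dendritic cells.

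EO771 is a mouse mammary carcinoma line of C57BL/6 origin, and its cells were implanted in the mammary fat pad of female mice. The controls were *Csf1rfl/fl* mice, whose *Csf1r* gene is flanked by loxP sites and intact, and the others were *Lyve1CreCsf1rfl/fl* mice, in which Cre from the *Lyve1* locus removes *Csf1r* in cells that have expressed *Lyve1*. Both groups carried the floxed *Csf1r* alleles, and *Lyve1* is also active in lymphatic endothelium, so the deletion was not limited to macrophages by design. Each of 2 Chromium runs pooled 1 tumor of each genotype, which gave 4 tumors and 2 per genotype, and the age of the mice is not given in the sources used here. Values over the 4 tumors are listed below in a fixed order, with the *Csf1rfl/fl* tumors of runs 1 and 2 first and the *Lyve1CreCsf1rfl/fl* tumors of runs 1 and 2 after them.

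The tumor of each cell was read from an antibody-bound DNA barcode (hashtag), and these sequences are shown because each assignment of an NK cell to a genotype rests on them. The capitals mark the whole barcode, read from 5′ to 3′, and the hashtags changed genotype between the runs. In run 1, A0301 was on the *Csf1rfl/fl* cells and A0302 on the *Lyve1CreCsf1rfl/fl* cells, and in run 2 the reverse.
A0301: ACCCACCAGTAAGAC
A0302: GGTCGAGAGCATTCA

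NK cells numbered 320, 292, 265 and 204 in the 4 tumors, with 1666210, 1334691, 1183400 and 1059816 UMIs in sum and a median of 4338, 3733, 3649 and 4276.5 UMIs per cell. The cells had a median of 1529 genes. Less than a 3-fold gap between the hashtags was found in 4.06%, 0%, 1.13% and 0.490% of them, so that the assignment was least clear in the *Csf1rfl/fl* tumor of run 1. Of 53361 barcodes in both runs 200 sequences occurred in both, 60 of them as kept cells of both runs, and 5 NK cells had such a barcode. RNA of other cells was present in the sums. Of the NK cells, 276 (25.5%) held no UMI of *S100a8*, *S100a9* or the C1q genes, and the list of 10 neutrophil markers summed to 20.9, 21.5, 28.3 and 11.8 UMIs per 10000 in NK cells against 1887 to 2160 in cells high in *S100a8* and *S100a9*. The 10 macrophage markers summed to 9.99, 8.11, 8.15 and 5.05 UMIs per 10000 of NK cells. Both lists hold genes that the rule capped. Without these they summed to 13.2, 14.2, 18.9 and 8.97 and to 8.85, 7.72, 7.84 and 4.88, again lowest in the *Lyve1CreCsf1rfl/fl* tumor of run 2.

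The cells just inside and just outside the rule's threshold were compared, with no test. Cells that met every other criterion with 1 UMI of *Ncr1* and *Klrb1c* numbered 261, and had 67.5 UMIs of *Gzma*, 3.58 of *Klra4* and 3.19 of *Klra8* per 10000. The 230 cells with 2 UMIs, just inside the rule, had 84.5, 4.79 and 3.31, and the 9217 cells with 0 UMIs had 0.640, 0.0335 and 0.0279. Cells left out at 1 UMI thus carried these NK genes as well, somewhat lower than the cells with 2. Their median depth was 3025 UMIs, against 3098 in the cells with 2 and 4009 in all NK cells. They also held more myeloid RNA, with *Lyz2*, a gene of macrophages and neutrophils, at 10.4 UMIs per 10000 against 3.32 in the cells with 2 UMIs, and *S100a8* at 5.35 against 3.92. At the other limits, the NK cell richest in C1q genes was at 19.95 UMIs per 10000 and the nearest cell left out for C1q alone was at 21.6, while for *S100a8* and *S100a9* the values were 290.2 inside and 312 outside. Among all 2080 kept cells with at least 2 UMIs of *Ncr1* and *Klrb1c*, 660 were left out for a Cd3 UMI, and 229 were left out for *Mki67* and *Top2a* alone.

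The genes that name NK cells but were not in the rule were checked first, as UMIs per 10000 UMIs of the NK cells of each tumor. *Gzma*, which encodes granzyme A, was at 122, 77.1, 104 and 96.3, *Klra4* was at 3.6, 6.05, 3.72 and 4.22, and *Klra8* was at 2.96, 4.73, 2.92 and 3.61. Over the 4 tumors the means were 100 ± 18.7, 4.40 ± 1.13 and 3.56 ± 0.844 (SD, n = 4), which was 23.2, 22.6 and 24.7 times the level in all other kept cells. Those other cells include cells that the rule left out at 1 UMI of *Ncr1* and *Klrb1c*, for a Cd3 UMI, or for *Mki67* and *Top2a*. *Gzma* was at 67.5, 46.8 and 71.9 UMIs per 10000 in these groups. The label therefore held for *Gzma*, *Klra4* and *Klra8* in each tumor. The rule had no criterion against type 1 innate lymphoid cells, and their share among these cells was not determined. The list for group 2 and group 3 innate lymphoid cells, without *Ncr1*, summed to 0.0960, 0.105, 0.0930 and 0.0472 UMIs per 10000 of NK cells, most of it from *Cd200r1*, which the lists for tissue residence and checkpoint receptors also hold. *Il1rl1*, which marks group 2, was at 0.00150, from 1 tumor alone, and *Il22* and *Il23r* had 0 UMIs. The rule chose these cells for NK receptor genes and against T cell genes, so differences from other cells are given as description with no test.

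The 15 genes with the highest ratio of NK cells to all other kept cells, among genes at 1 UMI per 10000 or more, were receptor genes, granzymes and few others. Receptors of the rule itself, *Klrb1c* and *Ncr1*, were among them at ratios of 25.7 and 22.8. Others were the lectin-like receptor genes *Klrb1a* at a ratio of 18.7 and *Klrb1f* at 11, and *Styk1*, a receptor kinase gene, at 18.5. *Klra9* at 23.4, *Klra7* at 14.2 and *Klra3* at 11.9 joined *Klra8* and *Klra4*, so that 5 of the 15 were Ly49 genes. *Eomes*, the transcription factor that NK cells share with memory CD8 T cells, was at 1.10, 2.61, 1.39 and 1.86 UMIs per 10000 and at a ratio of 10.9, and *Car2*, a carbonic anhydrase gene, was at a ratio of 10.

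Killing genes were described beside CD8 T cells without *Tcf7* and gamma delta T cells. The 1864 CD8 T cells held a Cd3 UMI, at least 2 Cd8 UMIs, and no UMI of *Ncr1* or *Klrb1c*. *Gzmb*, which encodes granzyme B, was at 32.2, 23.5, 29.1 and 30.9 UMIs per 10000 in NK cells, against a mean of 6.02 ± 0.734 (SD, n = 4) in CD8 T cells. *Prf1*, which encodes perforin, was at 9.84, 9.57, 8.14 and 12.8 in NK cells and at 4.91 ± 0.572 in CD8 T cells. In both genes the lowest NK value lay above the highest CD8 value. *Gzmc*, a granzyme gene of activated killer cells, was at 19.3, 7.07, 23.5 and 26.0 in NK cells and at 0.491 ± 0.257 in CD8 T cells, and its level in the *Csf1rfl/fl* tumor of run 2 stood below the other tumors. *Nkg7*, a granule membrane gene, was alike in both, at 18.0 ± 2.02 and 17.8 ± 2.81. The related granzyme gene *Gzmk*, which marks other killer T cells, was at 0.0580 in NK cells and 0.361 in CD8 T cells. Of the 2997 genes at 0.5 UMIs per 10000 or more in either class, 9.44% lay above CD8 T cells in NK cells with no overlap over the 4 tumors and 9.74% lay below. Of the cytotoxic effector list 7 of 18 such genes were above and 1 was below, and of the NK identity list 12 of 16 were above and 0 below. The rule used this contrast, so nothing is read from these counts.

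The 279 gamma delta T cells, which held UMIs of Cd3 and *Trdc* and were not required to lack *Ncr1* or *Klrb1c*, stood between both classes in several of these genes. Their NK identity list summed to 79.1 to 110 UMIs per 10000, against 182 to 243 in NK cells and 45.1 to 67.7 in CD8 T cells. That list holds *Ncr1* and *Klrb1c*, which were required in NK cells and barred in CD8 T cells, so nothing is read from this order. Without both genes it summed to 173 to 234 in NK cells. The Ly49 list summed to 7.09 to 9.57 in the gamma delta T cells, against 16.2 to 19.4 in NK cells and 0.469 to 0.548 in CD8 T cells. The cytotoxic effector list summed to 66.3 to 126 in them, against 168 to 240 and 55.8 to 60.9. *Gzmb* was at 7.69, 9.67, 9.32 and 11.9 UMIs per 10000 of gamma delta T cells and *Prf1* at 1.13, 3.15, 2.44 and 5.06, below the NK values of each tumor. *Gzmc*, at 9.67, 1.77, 6.11 and 20.1, and *Xcl1*, at 9.06, 11.9, 15.1 and 12.7, overlapped with the NK values. Among kept cells with at least 2 UMIs of *Ncr1* and *Klrb1c*, the 660 with a Cd3 UMI had 46.8 UMIs of *Gzma* and 2.14 of *Klra4* per 10000. How much of the gamma delta values came from such cells was not tested.

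Receptor, adaptor and cytokine receptor genes were also set beside CD8 T cells. *Klrk1*, which encodes the activating receptor NKG2D, was at 5.05, 5.26, 5.12 and 5.74 UMIs per 10000 of NK cells and at 3.26 ± 0.130 in CD8 T cells (SD, n = 4), and *Klrd1*, which encodes CD94, was at 13.2, 9.37, 12.1 and 11.7 and at 9.12 ± 2.14. *Tyrobp*, which encodes the adaptor DAP12 of activating Ly49 receptors, was at 24.4, 17.1, 23.2 and 17.7 in NK cells, higher in both tumors of run 1, and at 4.82 in CD8 T cells, but cells high in *S100a8* and *S100a9* reached 30.2. *Il2rb*, the receptor chain for interleukins 2 and 15 on which NK cells depend, was at 7.01, 11.2, 8.87 and 11 in NK cells, lower in both tumors of run 1, and at 5.52 in CD8 T cells. *Il12rb2*, a chain of the interleukin 12 receptor, was at 0.746 in NK cells and 0.213 in CD8 T cells, and *Il18r1*, of the interleukin 18 receptor, at 1.69 and 1.68. *Il7r*, a receptor gene of most T cells, was at 0.252 in NK cells and 0.972 in CD8 T cells. *Tbx21*, which encodes T-bet, was at 0.552, 1.15, 0.853 and 1.06 in NK cells and at 0.594 in CD8 T cells, with overlap. The interferon response list summed to 51.5 to 62.5 UMIs per 10000 in NK cells and to 99.7 to 140 in CD8 T cells, but most of this gap was 1 gene, *Ifi27l2a*, at 18.6 in NK cells and 71.3 in CD8 T cells, which was singled out after its values were seen. Of 27 genes of the list at 0.5 or more in either cell type, 5 (18.5%) lay below all CD8 values in NK cells and 0 above them, beside 9.74% below and 9.44% above among all 2997 such genes.

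Signal proteins were uneven. *Xcl1*, a chemokine gene for dendritic cells that carry XCR1, was at 10.7, 10.6, 15.2 and 13.3 UMIs per 10000 of NK cells, against 1.79, 1.09, 4.07 and 6.13 in CD8 T cells. *Ccl5*, a chemokine gene for T cells and monocytes, was at 80.8, 51.6, 64.2 and 44.4 in NK cells and at 22.4 ± 4.89 in CD8 T cells (SD, n = 4). The NK values of both genes lay above all CD8 values. *Ccl3* and *Ccl4*, further chemokine genes, were at 4.71 and 14.5 in NK cells and at 6.36 and 15.3 in CD8 T cells, with overlap, and at 44.4 and 70.2 in cells high in *S100a8* and *S100a9*. *Ifng*, which encodes interferon gamma, was at 2.34, 2.17, 2.01 and 2.20 in NK cells, a narrow spread, and at 3.26 ± 0.973 in CD8 T cells. *Spp1*, which encodes osteopontin, was at 6.32, 2.41, 6.05 and 7.15 in NK cells and at 0.807 in CD8 T cells. Of cytokine genes that act on dendritic cells and macrophages, *Flt3l* was at 0.323 and *Csf2* at 0.152 in NK cells.

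Genes of tissue residence and of checkpoint receptors were set beside CD8 T cells in the same way. *Cxcr6*, a chemokine receptor of resident lymphocytes, was at 0.0720, 0.142, 0.161 and 0.142 UMIs per 10000 of NK cells against 3.48 ± 0.586 in CD8 T cells (SD, n = 4). Of the list for type 1 innate lymphoid cells and tissue residence 7 of 8 genes lay below CD8 T cells with no overlap, beside 9.74% of the 2997 genes. *Itga1*, which encodes a collagen-binding integrin of these cells, was at 0.264 in NK cells, and *Itga2*, the integrin of conventional NK cells, was at 0.614. Of the checkpoint receptor list 6 of 6 genes at 0.5 or more in either class lay below in the same way. The contrast is again that of the rule, and nothing is read from these counts. *Pdcd1*, which encodes PD-1, was at 0.0723 in NK cells and 2.05 in CD8 T cells, *Lag3* was at 0.407 and 2.01, *Havcr2*, which encodes TIM-3, was at 0.311 and 1.82, and *Klrc1* was at 1.61 and 2.43.

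**Figure D1:**
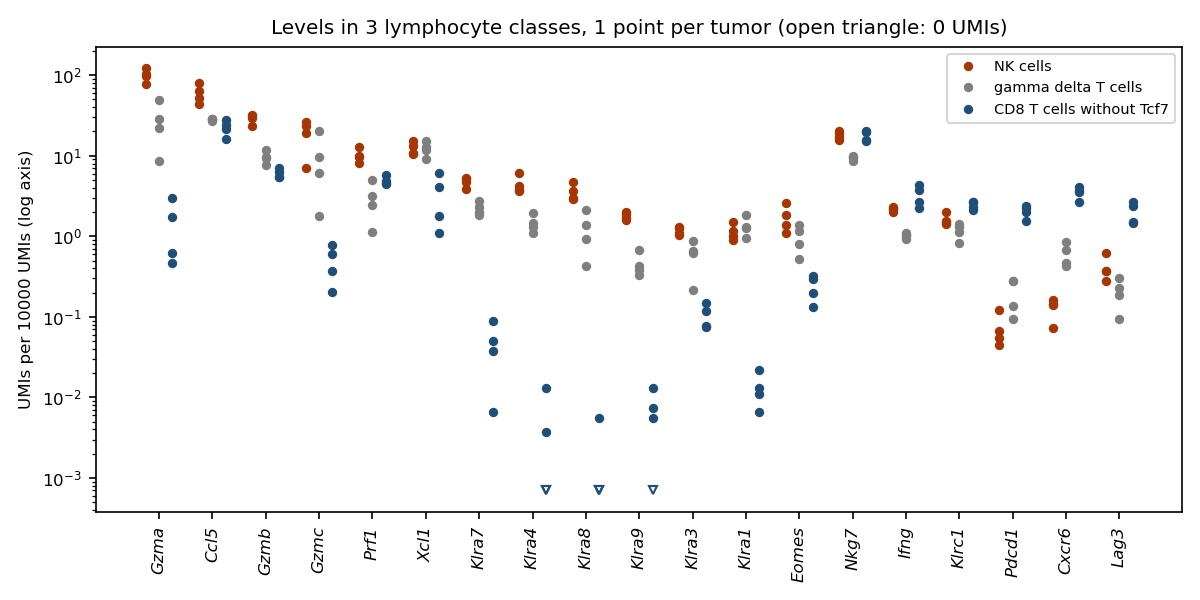
Level of 19 genes, as UMIs per 10000 UMIs on a log axis, in NK cells, gamma delta T cells (279 cells with UMIs of Cd3 and Trdc) and CD8 T cells without Tcf7, with 1 point per tumor. Open triangles mark tumors with 0 UMIs of the gene. The Ly49 genes stand higher in NK cells than in CD8 T cells in each tumor, and Pdcd1, Cxcr6 and Lag3 have the opposite order. The gamma delta T cells were not required to lack Ncr1 or Klrb1c.

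Ly49 receptors are switched on in part of the NK cells of a mouse, so their genes were described per cell, after each cell was thinned at random to 2000 UMIs. This left 956 NK cells, and 37, 30, 41 and 17 cells of the 4 tumors were too shallow. *Klra4* and *Klra8* encode the activating receptors Ly49D and Ly49H, and *Klra1*, *Klra3*, *Klra7* and *Klra9* encode the inhibitory receptors Ly49A, Ly49C, Ly49G and Ly49I. *Klra7* was detected in 42.5% of the 956 cells, *Klra8* in 35.0%, *Klra4* in 34.6%, *Klra9* in 21.0%, *Klra3* in 15.5% and *Klra1* in 12.9%. *Klra2*, *Klra6* and *Klra5* were found in 2.30%, 2.09% and 1.88%, *Klra10* in 5 cells and *Klra17* in 3. For background, cells high in *S100a8* and *S100a9* were used, with a median of 2226 UMIs before thinning against 4009 in NK cells. Any Ly49 gene was found in 23.7% of these 2977 cells, most of it *Klra2*, and in 6.18% without that gene. Of the 6 most frequent genes of NK cells each was found there in 0.202% or less. *Klra7* was found in 0.168%, *Klra8* in 0.134% and *Klra4* in 0.202%, which lay far below the shares in NK cells. In 1733 CD8 T cells *Klra7* was found in 0.577% and *Klra8* in 0. This allows a share of up to 0.173% of cells with a detected UMI at this depth, counting error only. It does not bound the share of cells that carry the mRNA.

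A single cell often held several of these genes. Of the thinned NK cells 22.1% held no Ly49 gene, 24.1% held 1, 27.3% held 2, 18.0% held 3, 6.90% held 4 and 1.67% held 5. *Klra8* was detected in 52.9% of the cells with *Klra4* and in 25.6% of those without, and with *Klra4* its share was higher in each of the 4 tumors, at 47.0%, 53.8%, 51.4% and 61.0% against 22.5%, 35.7%, 22.1% and 23.4%. Both genes lie in 1 cluster on chromosome 6 (mm10, GENCODE vM21), *Klra4* at chr6:130043731-130067271 and *Klra8* at chr6:130115226-130129898. Reads may be shared between neighbours in this family. Of the 50-base stretches in the last 500 bases of its transcripts, *Klra9* shared 49.4% with other genes, most with *Klra3*, and *Klra10* shared 40.6%, *Klra3* 31.5%, *Klra7* 22.1%, *Klra8* 13.1% and *Klra4* 4.66%, so the values of *Klra9*, *Klra10* and *Klra3* are the least certain of the Ly49 genes.

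**Figure D2:**
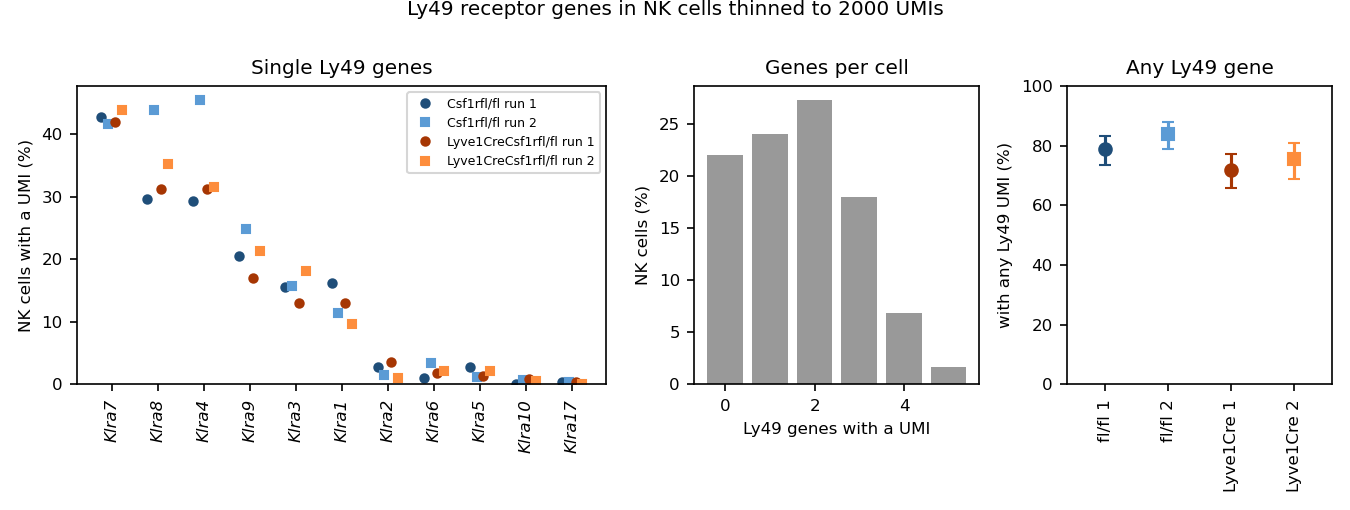
Ly49 genes in NK cells thinned to 2000 UMIs: left, the percentage of cells with a UMI of each gene, 1 point per tumor; middle, the percentage of all 956 cells by the number of Ly49 genes with a UMI; right, the percentage with any Ly49 UMI in each tumor, with 95% Wilson intervals. Both Lyve1CreCsf1rfl/fl tumors, at 71.9% and 75.4%, lie below both Csf1rfl/fl tumors, at 78.8% and 84.0%.

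To learn how NK cells with and without these receptors differed, the thinned UMIs of the 745 cells with a Ly49 UMI and the 211 without were summed per tumor and tested with edgeR, with the tumor as a block and the Ly49 genes left out. A cell without a UMI may still carry the mRNA, so the classes differ in detected level. How many of the cells without a UMI lacked the mRNA cannot be told. Of 2821 genes 15 (0.532%) were higher and 23 (0.815%) were lower in the cells with a Ly49 UMI, at an adjusted p below 0.05. Without the filter on low counts 63 were higher and 23 lower, which turned the balance. Cytotoxic genes took opposite sides. *Gzma* was at 18870, 10075, 16193 and 12623 CPM (counts scaled to a common library size) in cells with a Ly49 UMI and at 9602, 7413, 8333 and 7278 in cells without, a rise of 0.80 ± 0.06 on the log2 scale (SE, adjusted p = 1.07e-09). *Gzmb* rose by 0.58 ± 0.08 and *Prf1* by 0.44 ± 0.11. *Gzmc* fell, from 3968, 1267, 5183 and 3341 CPM in cells without to 1229, 382, 1238 and 1284 in cells with a Ly49 UMI, by -1.72 ± 0.09 (adjusted p = 8.11e-14). *Gzme*, of the same cluster, fell as well, by -1.89 ± 0.39. *Gzmb*, *Gzmc* and *Gzme* lie in 1 granzyme cluster on chromosome 14 of mm10, with *Gzmc* at chr14:56231441-56234656 and *Gzmb* at chr14:56258838-56262260, and the sequences of *Gzmb* and *Gzmc* shared no 50-base stretch with another gene, while *Gzme* shared 18.2%.

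Genes higher in cells with a Ly49 UMI in all 4 tumors included *Eomes*, by 1.13 ± 0.25, *Klri2*, an NK lectin-like receptor gene, by 0.90 ± 0.20, and *Ccl5*, by 0.65 ± 0.08. The largest rise was that of *Khdc1a*, by 2.24 ± 0.41, from 19.8, 12.8, 28.6 and 23.4 CPM to 89.2, 80.5, 109 and 138. *Ptpn18*, a phosphatase gene, rose by 0.55 and *Ahnak*, which encodes a large scaffold protein, by 0.52. Genes lower in these cells in all 4 tumors included *Xcl1*, at 1082, 1155, 1310 and 850 CPM against 2688, 1421, 2978 and 2733, by -1.14 ± 0.12 (adjusted p = 5.63e-07). *Klrc1*, the gene of the other inhibitory receptor for MHC class I, was at 170, 113, 176 and 162 against 377, 384, 258 and 432 (-1.21 ± 0.19, adjusted p = 3.72e-04). No tumor overlapped between the classes in either gene. *Klrc1* shared 43.5% of its 50-base stretches with other genes, most with *Klrc2*, so its counts are uncertain in the same way. *Cd226*, which encodes an activating receptor, fell by -1.65 ± 0.33, *Ikzf2*, which encodes the transcription factor Helios, by -1.29 ± 0.25, and the protease gene *Furin* by -1.53 ± 0.34. The list for type 1 innate lymphoid cells and residence gave the largest fall, *Tmem176b* by -3.23 ± 0.50, and that of *Gpr183*, an oxysterol receptor gene, by -2.13 ± 0.44.

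Beside the 0.532% of all genes that rose and the 0.815% that fell, 5 of 14 NK identity genes outside the rule rose and 0 fell, 2 of 8 mature NK genes, *Gzmb* and *Prf1*, rose and 0 fell, 2 of 10 immature NK genes fell and 0 rose, and 2 of 4 genes for type 1 innate lymphoid cells and residence fell. Their median differences were 0.39, 0.42, -0.58 and -1.33, against 0.01 over all genes tested. In the cytotoxic effector list 4 of 16 rose and 2 fell. The 4 were *Gzmb* and *Prf1*, shared with the mature list, and *Gzma* and *Nkg7*, shared with the NK identity list. All lists were chosen with earlier results of these data known. Markers of neutrophils moved too. *G0s2*, *Cxcl2* and *Il1b*, 3 of the 4 neutrophil markers tested outside the rule, fell with a Ly49 UMI, and the list summed to 17.7, 14.2, 20.7 and 8.30 UMIs per 10000 in cells with a Ly49 UMI and to 29.9, 31.5, 41.3 and 11 in cells without. In the 253 cells with and 71 cells without a Ly49 UMI that held no UMI of that list, a choice made after the values were seen, 789 genes could be tested, *Gzmc* alone passed (-1.43, adjusted p = 0.00103), and *Gzma*, *Gzmb*, *Klrc1* and *Xcl1* stood at 0.74, 0.60, -1.31 and -1.03 without passing. The part of neutrophil RNA in the other differences was not tested. Without the replicate block 6 genes passed, *Khdc1a*, *Tmem176b*, *Gzmc*, *Cd226*, *Klrc1* and *Xcl1*, and with DESeq2 7 passed, among them *Gzma*, *Ccl5*, *Gzmb*, *Gzmc*, *Klrc1* and *Xcl1*. Without the *Lyve1CreCsf1rfl/fl* tumor of run 1 20 genes passed, 18 of them among the 38.

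**Figure D3:**
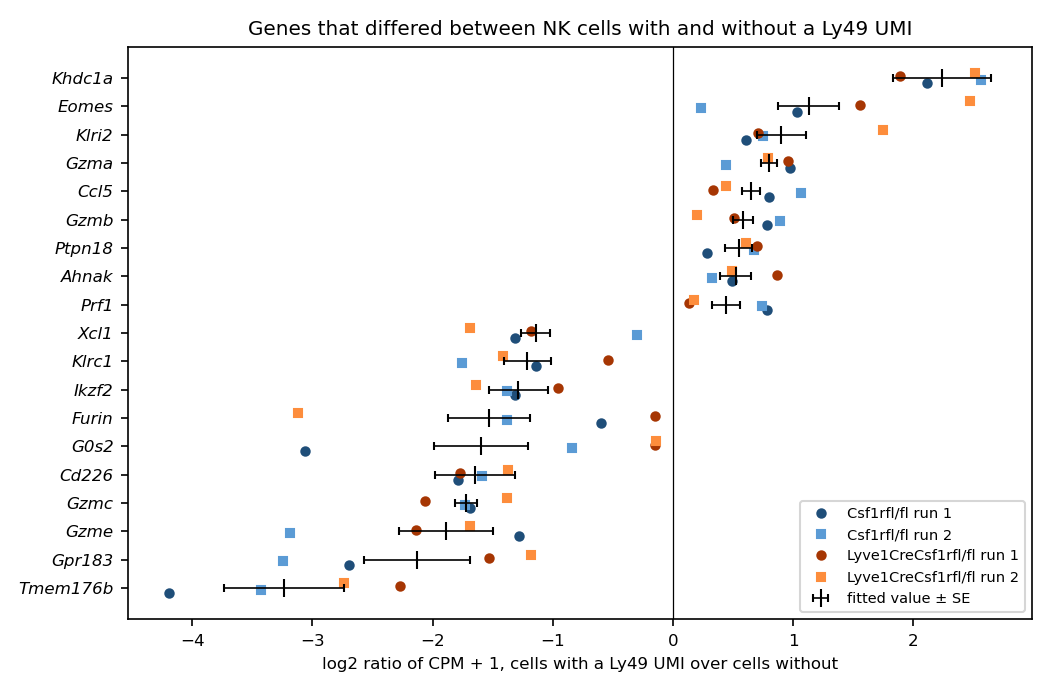
Genes with the largest rises and falls among those that passed the test and moved the same way in all 4 tumors, as the log2 ratio of (CPM + 1) in NK cells with a Ly49 UMI over those without, 1 point per tumor; bars give the fitted value ± SE. The points of Gzma, Gzmc and Klrc1 lie on 1 side of 0 in each tumor, and those of Furin and G0s2 spread widely.

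NK cells also varied along genes that no Ly49 split was needed to see. Ranked by variance beyond that of counting, with a median of 1.19 over 2697 genes, the first 15 genes were *Ccl5* (53.8), *Malat1* (45.8), *Gzma* (44.4), *Gm42418* (35.1), *Gzmc* (22.3), *Ccl4* (21.6), *Gzmb* (16.8), *Ifi27l2a*, *Actb*, *Xcl1* (14.2), *Fth1*, *Tmsb4x*, *Ifitm3*, *S100a6* and *Cst3*. Effector genes thus took 6 of the 15 places. This variance tends to grow with the level of a gene, so the places are not independent of level. The genes differed in how few cells held them, and the richest 10% of cells held 37.3% of the UMIs of *Gzma*, 43.1% of *Gzmb*, 61.0% of *Xcl1* and 91.7% of *Gzmc*. In the thinned cells, *Xcl1* was found in 41.6% of those with a *Gzma* UMI and in 86.9% of those without, and *Gzmc* in 17.4% and 45.2%. Within each tumor the direction was the same for both genes.

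The NK cells of each tumor were therefore divided at the tumor's median of *Gzma*, 22, 11.5, 16.5 and 16 UMIs of 2000, a choice made after the values were seen, and no test was run. At these depths *Gzma* was at 0 in 18.4%, 17.6%, 19.2% and 14.4% of the cells, and in cells high in *S100a8* and *S100a9* it was found in 2.62%. Values are UMIs per 10000 in the cells above the median against the rest. Genes of late NK development were higher above the median. *Klrg1*, a receptor gene of late NK cells, was at 0.857, 0.878, 0.536 and 1.24 against 0.245, 0.153, 0.0893 and 0.213, and *Cma1*, which encodes the protease chymase, was at 0.801 ± 0.143 against 0.0581 ± 0.0481 (SD, n = 4). *Itgam*, which encodes the integrin CD11b, was at 1.54 against 0.585, *S1pr5*, a receptor gene for exit from tissue into blood, at 0.247 against 0.0403, and the transcription factor genes *Irf8* at 13.0 against 6.84 and *Klf2* at 3.41 against 1.79. Killing genes moved the same way, with *Gzmb* at 43.9 ± 3.03 against 14.8 ± 3.99, *Prf1* at 15.2 against 6.03 and *Ccl5* at 122 against 34.3. Each of these genes was higher above the median in all 4 tumors.

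The cells at or below the median were richer in genes of early NK cells and in genes for type 1 innate lymphoid cells and residence. *Xcl1* was at 19.3, 16.0, 22.1 and 19.7 in them and at 3.86, 5.80, 7.37 and 4.25 above the median. *Ltb*, which encodes lymphotoxin beta, was at 2.41 ± 0.645 against 0.465 ± 0.387 above the median (SD, n = 4), *Tcf7*, the transcription factor of early lymphocytes, at 1.82 against 0.428, *Kit*, the stem cell factor receptor gene, at 0.967 against 0.183, and *Cd27*, a costimulatory receptor gene, at 1.04 against 0.615. *Tnfsf10*, which encodes the death ligand TRAIL, was at 0.50 against 0.0459, and *Cxcr6* at 0.285 against 0 UMIs in the 140, 131, 112 and 93 cells above the median. *Gzmc* was at 20.7 against 7.01, the same side as *Xcl1* and the opposite side from *Gzma*, *Gzmb* and *Prf1*. Over all 5795 genes compared, 9.56% were higher and 10.7% lower above the median in all 4 tumors. In the mature NK list 10 of 12 genes were higher in all 4 tumors and 0 lower, with a median log2 ratio of 1.28, and in the immature NK list 0 were higher and 10 of 12 lower, with a median of -1.34. The median of all genes was -0.02. *Gzmb* and *Prf1* are members of the mature list, and *Xcl1* is a member of the immature list. The lists were chosen with earlier results of these data known, so the counts are description.

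Other lists followed. Of the trafficking list 10 of 18 genes were higher above the median in all 4 tumors and 1 lower. Of the list for type 1 innate lymphoid cells and residence 1 of 10 was higher and 7 were lower, with a median log2 ratio of -1.51. A Ly49 UMI was held by 86.4%, 84.7%, 83.9% and 83.9% of the cells above the median and by 71.3%, 83.2%, 59.8% and 67.0% of the rest, so the gap was smallest in the *Csf1rfl/fl* tumor of run 2. Of the markers of other cells, 5 of 7 dendritic cell markers were lower above the median in all 4 tumors, beside 10.7% of all genes. Of neutrophil and macrophage markers outside the rule, 2 of 7 and 1 of 4 were lower, counts too small to set against that share. The part of these markers' cells in the other differences was not tested.

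**Figure D4:**
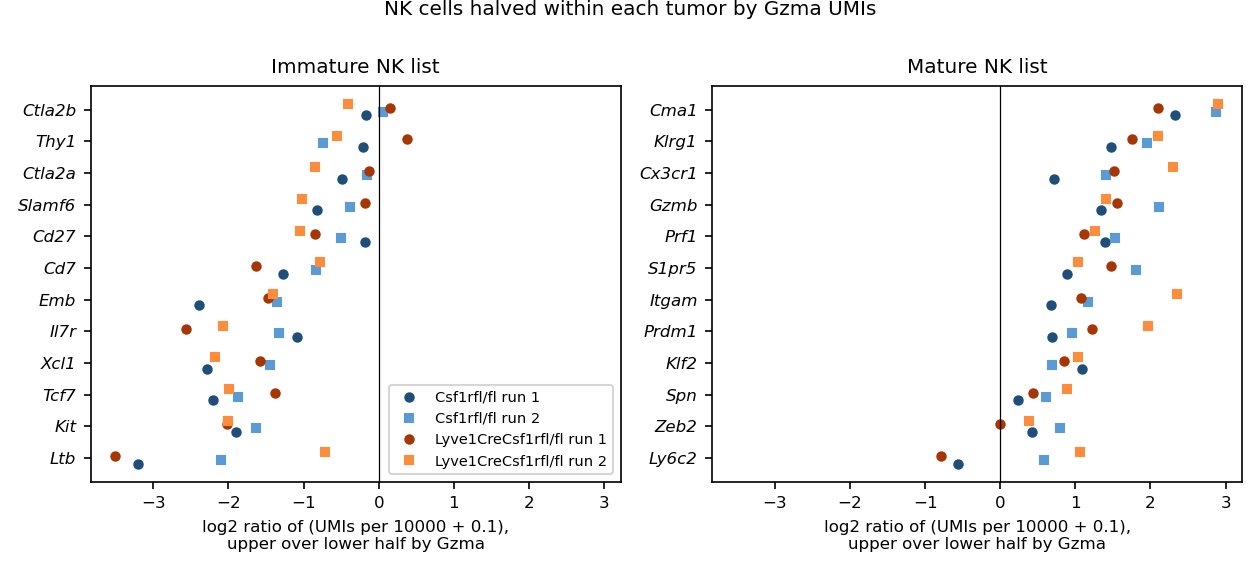
The immature NK list (left) and the mature NK list (right) as the log2 ratio of (UMIs per 10000 + 0.1) in NK cells above their tumor's Gzma median over the rest, in cells thinned to 2000 UMIs, 1 point per tumor. In the immature list all points but those of Thy1 and Ctla2b lie below 0 in each tumor, and in the mature list all but those of Ly6c2 and Zeb2 lie above it.

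Cells rich in *Gzmc* were described as the 10% of the thinned cells of each tumor with the most *Gzmc* UMIs, so that the size of the class, 29, 27, 23 and 19 cells, was set by the choice. *Gzmc* was at 0 in 77.7%, 85.9%, 71.4% and 73.8% of all thinned NK cells. The members held at least 10, 1, 13 and 14 UMIs, and the cells outside up to 8, 1, 13 and 14, so that in 3 tumors cells with equal counts lay on both sides and the boundary was arbitrary. *Gzmd*, of the same cluster on chromosome 14, was at 7.41, 5.0, 2.39 and 10.5 UMIs per 10000 in the class and at 0.0199 in the rest, and *Gzme* was at 3.0 ± 1.45 against 0.0435 (SD, n = 4). Since *Gzmd* and *Gzme* shared 15.1% of their 50-base stretches, reads could pass between them, but *Gzmc* shared none. *Ccl5* was at 4.31, 13.3, 10.2 and 0 in the class and at 119, 66.8, 88.9 and 70.1 in the rest, and this low value was the opposite of that in the cells rich in *Gzma*.

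The class differed in other receptors and ligands. *Spp1* was at 22.4, 6.30, 11.7 and 15.8 against 2.42, 1.70, 4.33 and 3.10, *Il2ra*, the high-affinity interleukin 2 receptor gene, at 1.21 against 0.157, *Xcl1* at 27.9 against 10.5, *Kit* at 1.51 against 0.470, *Thy1* at 4.81 against 2.07, and *Tnfsf10* at 0.913 against 0.201. Each was higher in the class in all 4 tumors. *Itga2* was at 0.0431 against 0.841, *Eomes* at 0.892 against 2.22 and *Ifng* at 1.32 against 2.71, each lower in all 4 tumors. *Prf1* was at 10.1 ± 3.47 against 10.7 ± 1.74 and *Gzmb* at 31.6 ± 7.46 against 29.1 ± 3.66, both with overlap. Of 6011 genes 7.09% were higher and 14.9% lower in the class in all 4 tumors, and of the trafficking list 1 of 17 was higher and 11 were lower. Of the NK identity genes outside the rule 0 of 14 were higher and 8 lower, and of the immediate early genes 0 of 21 and 9. Of the list for type 1 innate lymphoid cells and residence 4 of 12 were higher and 1 lower. Its median log2 ratio was 0.84, against -0.05 over all genes. *Cxcr6* was at 0.671 against 0.0833, higher in all 4 tumors. Of dendritic cell markers 3 of 7 were lower, and of the neutrophil and macrophage markers outside the rule 0 of 5 and 0 of 4 moved 1 way in all 4 tumors. The part of RNA from dendritic cells in these differences was not tested. A Ly49 UMI was held by 55.2%, 77.8%, 47.8% and 52.6% of the class and by 81.5%, 84.7%, 74.6% and 78.0% of the rest. These classes were made from the cells' own counts, and the values are description with no test.

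The genotypes were compared to ask whether loss of *Csf1r* in *Lyve1*-expressing cells changed the NK cells of the tumor. NK cells made up 3.71% (95% Wilson interval 3.33 to 4.13), 3.75% (3.35 to 4.20), 3.66% (3.25 to 4.11) and 4.28% (3.74 to 4.89) of the kept cells. The intervals of all 4 tumors overlapped and cover counting error only. In choosing the kept cells the authors removed clusters of lymphocytes that came nearly all from the *Lyve1CreCsf1rfl/fl* tumor of run 2, which has the highest share, and the barcodes not kept numbered 3536, 5168, 6745 and 9483. The part of this removal in the share was not tested. The log2 ratio of *Lyve1CreCsf1rfl/fl* over *Csf1rfl/fl* was 0.08, and -0.02 within run 1 and 0.19 within run 2 (exact permutation test, two-sided p = 1). With 2 tumors against 2, the smallest p that this test can give is 0.33. Of the cells that met every other NK criterion, 21.4%, 13.1%, 14.8% and 20.3% held both *Mki67* and *Top2a*. The difference was 0.316 percentage points, with -6.58 within run 1 and 7.22 within run 2 (exact permutation p = 1), so the direction differed between the runs. Cells were not thinned for this share, which depends on depth. The cells left out for both genes alone had a median of 9854 UMIs, against 4009 in NK cells. The higher shares, 21.4% and 20.3%, were in the tumors with deeper NK cells, at medians of 4338 and 4276.5 UMIs against 3733 and 3649. The part of depth was not tested.

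The share of thinned NK cells with any Ly49 UMI was 78.8% (73.7 to 83.2), 84.0% (79.0 to 87.9), 71.9% (65.7 to 77.4) and 75.4% (68.8 to 81.0). Both *Lyve1CreCsf1rfl/fl* tumors lay below both *Csf1rfl/fl* tumors, with means of 73.6% ± 2.49 and 81.4% ± 3.66 (SD, n = 2), a difference of -7.75 percentage points, with -6.92 within run 1 and -8.57 within run 2. The exact permutation p was 0.33, the smallest that this design allows, so the test cannot separate this difference from the spread between tumors. It was -7.12 points in cells that were not thinned and -3.30 (exact permutation p = 0.667) when cells were thinned to 1000 UMIs.

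In the edgeR fit of summed UMIs over 8222 genes, 0 genes (0%) differed between the genotypes in NK cells at an adjusted p below 0.05, while 158 (1.92%) had an unadjusted p below 0.05, 34 higher and 124 lower in *Lyve1CreCsf1rfl/fl*, and DESeq2 called 2, *Ccl12* and *Ccl7*. At the same unadjusted p 31 were higher and 23 lower in NK cells with no UMI of *S100a8*, *S100a9* or the C1q genes, where 3848 genes were tested, and 44 and 62 in cells under 2 times the median UMIs. The genes of NK function showed small or uneven differences. *Gzma* differed by -0.02 ± 0.41 on the log2 scale (SE), *Gzmb* by 0.08 ± 0.35, *Prf1* by 0.08 ± 0.31, *Ifng* by -0.12 ± 0.26, *Xcl1* by 0.41 ± 0.30 and *Gzmc* by 0.84 ± 0.46, and each had an adjusted p of 1.0. Errors of this size leave room for changes in either direction. Of the 14 NK identity genes outside the rule and the 9 Ly49, 20 cytotoxic, 12 immature and 12 mature NK genes tested, 0 passed, and their median differences were 0.04, -0.08, 0.08, 0.15 and -0.09, against -0.01 over all genes. The median of the interferon response list was -0.21, with 16 of 29 genes lower and 0 higher in both runs, and that of the glycolysis and hypoxia list was 0.15, with 8 of 19 higher and 0 lower in both runs. Of all 8222 genes 24.2% were lower and 22.2% higher in both runs. None of the genes of these lists passed.

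Outside the genes that the NK rule used, the 10 genes with the smallest p and the same direction in both runs did not pass the test. *C1qa*, which the rule used, was left out for that reason, although its p was smaller than those of *Pld4*, *Poglut1* and *Ms4a7*. They were *Ccl12*, *Ccl7*, *Arg1*, *Fabp4*, *Clec12a*, *Ccl1*, *Lgmn*, *Pld4*, *Poglut1* and *Ms4a7*. *Ccl12*, a chemokine gene for monocytes, was at 82.1, 64.4, 17.2 and 8.12 CPM in NK cells, a log2 difference of -2.53 ± 0.36 (adjusted p = 0.116), and *Ccl7*, of the same chemokine family, differed by -3.21 ± 0.50 (adjusted p = 0.137). *Arg1* and *Fabp4* had 0 UMIs in both *Lyve1CreCsf1rfl/fl* tumors, and in the *Csf1rfl/fl* tumors 1 cell each held 18 of 19 and 15 of 17 UMIs of *Arg1* and 16 of 21 and 11 of 14 of *Fabp4*. *Ccl1* was high in the *Lyve1CreCsf1rfl/fl* tumor of run 1 at 475 CPM, where 10 of 265 cells held all its 526 UMIs and 1 cell held 276. In run 2 the genotypes were alike in *Ccl1*, at 18.91 CPM in *Csf1rfl/fl* and 18.96 in *Lyve1CreCsf1rfl/fl*. Markers of macrophages were described beside these genes. The macrophage list holds *C1qa*, *C1qb* and *C1qc*, which the rule capped in each cell, and of its 6 other genes tested 5 were lower in *Lyve1CreCsf1rfl/fl* in both runs, beside 24.2% of all genes, with a median of -0.62. Cells at or above the C1q limit made up 6.55%, 3.62%, 2.39% and 1.51% of the kept cells. In those cells *Ccl12* was at 15.6, 13.5, 9.66 and 9.45 UMIs per 10000, against 0.744, 0.689, 0.161 and 0.0849 in NK cells. *Ccl7*, *Arg1*, *Clec12a* and *Ms4a7* were also lower there in *Lyve1CreCsf1rfl/fl* in both runs, but other named genes were not, with *Lgmn* at 11.7, 10.9, 10.4 and 13.7, *Pld4* at 3.06, 3.13, 2.70 and 3.22, and *Fabp4* at 0.426, 0.199, 0.710 and 1.26. The part of RNA from these cells in the NK values was not tested.

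Tumors of 1 run were captured together, and with the run as a block 42 genes passed in the same test, 8 (0.0973%) higher and 34 (0.414%) lower in *Lyve1CreCsf1rfl/fl*. The fit then kept 1 residual degree of freedom per gene before the spread was shared across genes. The lower genes were again led by *Arg1* and *Fabp4*, each mostly from 1 cell per *Csf1rfl/fl* tumor, and by *Ccl7*, *Clec12a* and *Ccl12*. Among the higher genes *Ccl1* rose most, by 3.93 ± 0.30 (adjusted p = 7.43e-31). It was at 2.65, 18.91, 475 and 18.96 CPM, so the *Lyve1CreCsf1rfl/fl* tumor of run 1 set the difference. Outside the rule's genes 0 of 6 macrophage markers passed, and 3 of the 7 dendritic cell markers and 2 of 8 neutrophil markers were lower. Of the NK lists 2 of 20 cytotoxic genes were higher, *Gzmc* by 1.07 ± 0.19 (adjusted p = 2.47e-05) and *Gzmf* by 2.0 ± 0.26 (adjusted p = 1.50e-10). *Gzmc* was at 2126, 661, 2516 and 2484 CPM, and its log2 difference was 0.24 within run 1 and 1.91 within run 2, so the low *Csf1rfl/fl* tumor of run 2 set most of it. In NK cells with no UMI of *S100a8*, *S100a9* or the C1q genes, without the block, *Gzmc* differed by 0.06. *Gzmf* came from few cells, with 98 UMIs in 1 cell of the *Csf1rfl/fl* tumor of run 2 and 320 UMIs in 5 cells of the *Lyve1CreCsf1rfl/fl* tumor of run 2, 190 of them in 1 cell. *Spp1* was higher by 0.72 ± 0.18, but the runs differed in sign, with -0.11 within run 1 and 1.60 within run 2, where the *Csf1rfl/fl* tumor was low. *Trbc2*, a T cell receptor constant gene that NK cells also transcribe, was higher by 0.75 ± 0.18. *Cd79a*, a B cell gene, was higher by 2.84 ± 0.45, from 21 cells of the *Lyve1CreCsf1rfl/fl* tumor of run 2, where the 8 B cell markers summed to 5.76 UMIs per 10000 against 0.684 to 2.39 in the other tumors. A fit without 1 tumor leaves 1 tumor in its genotype, so the spread comes from the other genotype alone. No count of genes that passed is therefore given for such fits.

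**Figure D5:**
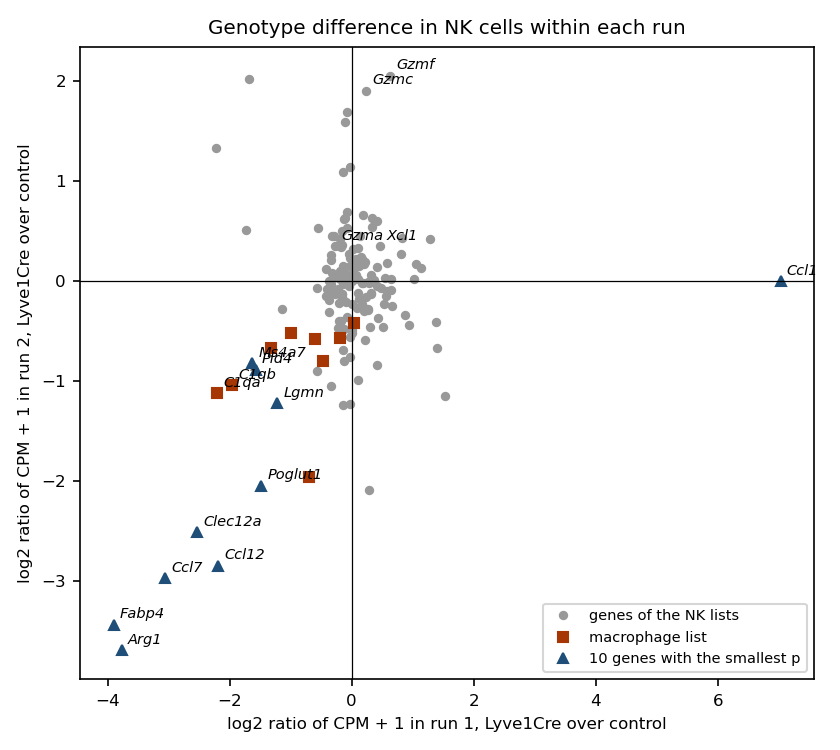
Log2 ratio of (CPM + 1) in NK cells, Lyve1CreCsf1rfl/fl over Csf1rfl/fl, within run 1 (horizontal) and within run 2 (vertical), for the genes of the NK lists, the macrophage list, with the C1q genes that the rule capped, and the 10 genes with the smallest p outside the rule. Macrophage genes lie mostly at the lower left, NK genes around 0, and Gzmc and Gzmf high in run 2.

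Whether the genotype difference of NK cells differed from that of CD8 T cells without *Tcf7* was tested as an interaction, with the tumor as a block. Of 9525 genes 2 (0.021%) passed and 407 (4.27%) had an unadjusted p below 0.05. *Fcer1g*, which encodes the gamma chain that carries signals of NKp46 and CD16, was at 3355, 1934, 2942 and 1967 CPM in NK cells and at 1525, 720, 580 and 425 in CD8 T cells. The NK values of the genotypes overlapped, and those of CD8 T cells did not. The log2 difference of *Lyve1CreCsf1rfl/fl* from *Csf1rfl/fl* was near 0 in NK cells, at -0.11 ± 0.37 (SE), and below 0 in CD8 T cells, at -1.14 ± 0.36, and neither passed alone. The signed value in NK cells minus that in CD8 T cells was 1.0 ± 0.14 (adjusted p = 0.0253). *Cxcl9*, an interferon-induced chemokine gene, was at 51.6, 32.7, 76.1 and 59.7 CPM in NK cells and at 59.6, 139, 18.5 and 12.6 in CD8 T cells, where the genotypes differed by -2.62 ± 0.42 without passing alone. The signed NK value minus the CD8 value was 3.22 ± 0.48 (adjusted p = 0.0375). In the *Lyve1CreCsf1rfl/fl* tumors 1 NK cell each held 63 of 83 and 57 of 65 *Cxcl9* UMIs. With all CD8 T cells outside the cell cycle as the second class, 0 genes passed, and *Fcer1g* and *Cxcl9* were at 0.69 and 1.67 (adjusted p = 1.0 for both).

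The next genes did not pass. As the NK value minus the CD8 value, *Il1rn*, which encodes the interleukin 1 receptor antagonist, differed by 1.46 ± 0.23 (adjusted p = 0.0548), *Spp1* by 2.04 ± 0.34 (0.0687), *Xcl1* by -1.38 ± 0.24 (0.0785) and *Tyrobp*, which encodes an adaptor of NK receptors, by 0.83 ± 0.15 (0.0851). *Xcl1* was at 192, 100.4, 423 and 564 CPM in CD8 T cells. *Hmox1*, *B230312C02Rik* and *Lilr4b* had adjusted p-values of 0.163 to 0.326. In CD8 T cells alone 0 of 9256 genes passed between the genotypes. Of the macrophage and neutrophil markers outside the rule's genes, 7 of 7 and 7 of 8 were lower there in *Lyve1CreCsf1rfl/fl* in both runs. This stood beside 26.8% of all 9256 genes, and the medians were -1.25 and -0.74. In NK cells the medians of these lists were -0.62 and -0.55. *Fcer1g* and *Tyrobp* are expressed by these myeloid cells, at 33.4 and 30.2 UMIs per 10000 in cells high in *S100a8* and *S100a9*, and the part of their RNA in the interaction was not tested.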

How the data were processed

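Viable CD45+ cells of 4 EO771 tumors were captured in 2 Chromium runs. The authors aligned reads to mm10 with Cell Ranger 6.0.1 and deposited counts of UMIs per gene and cell and counts of both hashtags, not normalized. A second deposited table holds scores, whole-number corrected counts from SCTransform of Seurat for 18449 genes, and served only to name the kept cells, which the authors chose as hashtag singlets under 5% mitochondrial UMIs and outside clusters almost all from the Lyve1CreCsf1rfl/fl tumor of run 2. No doublet caller was run. A deposited table of the study names each tumor's hashtag, and a cell went to the tumor with the higher count (11 kept cells had equal counts). Kept cells held 27686362 to 56395707 UMIs per tumor.

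NK cells and gene lists were chosen with earlier results of these data known. UMIs were summed per tumor and tested with edgeR 4.0.16 in R 4.3.3 (filterByExpr, TMM, quasi-likelihood test, Benjamini-Hochberg over all genes tested, threshold 0.05). The study tested cells, which are not replicates. Each tumor was 1 animal, so n = 2 per genotype. DESeq2 1.42.0 was an alternative. Shares were compared by exact two-sided permutation tests over tumors, with Wilson intervals that cover counting error only. Cells were thinned without replacement to 2000 UMIs for the Ly49 classes. Standard errors came from the fold change and test statistic. Runs pair the tumors by label, and the run difference of both genotypes correlated across 8222 genes with r = 0.290, and with r = 0.520 over 1040 genes above a log2 CPM of 7, where genes are not independent. Named genes were up to 10 per direction by fold past the threshold with 1 direction in both runs or all 4 tumors, otherwise the 10 smallest p. They also included members of the NK lists, up to 4 members of each other list, and 15 genes each by ratio to other cells and by variance. A few genes that met these rules are not reported here. Alternatives were a run block, other scaling, filters, depths and gates, and leaving out each tumor. Scripts were tested on simulated counts. Python 3.11.15 was used with scipy 1.17.1.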

Additional observations from a re-analysis of the deposited data

Results flagged for a closer look

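The log2 difference of Fcer1g between the genotypes, Lyve1CreCsf1rfl/fl minus Csf1rfl/fl, was -0.11 in NK cells and -1.14 in CD8 T cells without Tcf7. The NK value minus the CD8 value was 1.0 (edgeR interaction test, adjusted p = 0.0253), with 0.99 at DESeq2 size factors, 0.99 without a filter on low counts and 0.69 with all CD8 T cells (adjusted p from 1.77e-10 to 1.0). For Cxcl9, at -2.62 in CD8 T cells, the NK value minus the CD8 value was 3.22 (edgeR, adjusted p = 0.0375), with 3.21, 3.20 and 1.67 (adjusted p from 7.42e-23 to 1.0). Outside the kept cells, 300 of 24932 barcodes met every NK criterion, 70, 70, 98 and 62 by tumor, with a median of 5538.5 UMIs. Of these, 252 were under 5% mitochondrial UMIs, and 109 of them also had a hashtag at 3 times the other or more. They were not part of any comparison, and no control sample sets a level for them.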

How the results depend on the processing

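The count of genes that differed between genotypes in NK cells was 0 in edgeR, and also with DESeq2 size factors, without a filter, with clear hashtags, in cells under 2 times the median UMIs and in cells with no S100a8, S100a9 or C1q UMI. It was 42 with the replicate block, 2 with DESeq2, 7 with library totals alone, 2 with at least 3 UMIs of Ncr1 and Klrb1c, and 0 to 36 without 1 tumor. The interaction gave 2 genes, 28 without a filter and 0 with all CD8 T cells, and could not be fitted without 1 run. The Ly49 classes gave 38 genes, 86 without a filter (63 higher, 23 lower), 7 with DESeq2, 6 with no replicate block, 17 in cells under 2 times the median UMIs and 1 in cells with no neutrophil UMI, both chosen after seeing the data, and 20 to 40 without 1 tumor. With cells thinned to 1000 UMIs the classes gave 28 genes, 16 of them among the 38. The NK share (0.08) was -0.12 among cells with a Cd3 UMI plus NK cells and -0.029 to 0.20 without 1 tumor. The cycling share (0.316 points) was -0.620 with at least 3 UMIs and -3.82 to 4.46 without 1 tumor. The Ly49 share was -10.3 to -5.16 points without 1 tumor. The block left the values of all shares as they were, since each run holds 1 tumor per genotype.

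Single genes of the genotype fit changed sign near 0. Gzma (-0.02) was at 0.039 with the replicate block, 0.0069 with totals alone, 0.0041 with at least 3 UMIs, and -0.39 to 0.50 without 1 tumor. Gzmb (0.08) was at -0.011 in cells of low depth, -0.18 in cells without S100a or C1q UMIs and -0.21 to 0.46 without 1 tumor. Prf1 (0.08) was at -0.0050 in cells without S100a or C1q UMIs and -0.16 to 0.31 without 1 tumor. Klrc1 was at -0.044 in cells without S100a or C1q UMIs. Without 1 tumor Spp1 was at -0.049 to 1.56 and Gzmf at -3.21 to 6.15. The cause was not tested. Of the values of named genes under alternatives, 186 of the genotype fit kept direction and call, 35 newly passed and 14 changed sign. The genotype values include the fits without 1 tumor, whose calls rest on the spread of 1 genotype. In the Ly49 classes 161 kept both and 94 no longer passed. In the interaction 20 kept both, 8 newly passed and 2 no longer passed.

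With 204 to 320 NK cells per tumor, genes near 1 UMI per 10000 rest on few UMIs, and with 2 tumors per genotype the smallest p of a share was 0.33.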
